A study of Mus musculus with 30 samples.

Results

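The genes described here are 10 components of leptin and insulin signalling, chosen by their symbols: Lepr, Insr, Igf1r, Irs1, Irs2, Socs3, Stat3, Jak2, Ptpn1 and Foxo1. They are 10 of the 56941 genes in the count tables, and all 10 symbols matched a single Ensembl gene. Their transcripts were counted by 3′ mRNA-Seq in 30 libraries of mHypoA-2/12, a cell line made from adult mouse hypothalamus. Cells received cannabidiol (CBD), a compound of the hemp plant, at 0.325, 0.75, 1.5 or 3 µM, or the vehicle alone, for 6 h or 24 h, which gave 10 groups of 3 libraries. Vehicle was DMEM with GlutaMAX that held DMSO at 0.1%, and no group is described as having received leptin or insulin. The line is 1 clone of immortalized cells, so all groups share its genotype, and nothing in the labels says whether the 3 libraries of a group came from separate cultures. The p-values therefore measure the spread between libraries, which may be technical.

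Leptin binds a receptor without kinase activity of its own, Lepr, which works through the associated kinase Jak2. Jak2 phosphorylates the receptor and the transcription factor Stat3, and Stat3 raises the transcription of Socs3, an inhibitor that binds the receptor complex. Insulin and IGF-1 bind the receptor tyrosine kinases Insr and Igf1r, which pass the signal to the adaptor proteins Irs1 and Irs2 and on to PI3K and AKT, and AKT keeps the transcription factor Foxo1 out of the nucleus. Ptpn1 is a tyrosine phosphatase that acts on both Jak2 and the insulin receptor. In the hypothalamus these routes meet in neurons that control feeding and energy use.

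Positions of the genes are those of the GENCODE annotation of GRCm38, release M21, used here although the counts themselves were made on GRCm39. Stat3 spans 100885098 to 100939540 on the minus strand of chromosome 11, Socs3 117966079 to 117970047 on the minus strand of the same chromosome, and Jak2 29251828 to 29313080 on the plus strand of chromosome 19. Igf1r spans 67952827 to 68233668 on the plus strand of chromosome 7. In 3′ libraries most reads come from the last exon. Here this is the exon nearest the 3′ end after the exons of all transcripts of a gene were merged. The last exon of Stat3 has 3663 bases, of which 72 also belong to Stat5a on the opposite strand. The last exon of Irs1 has 4504 bases, of which 2822 also belong to Gm9747 on the opposite strand. No other member shared bases of its last exon with another gene, and the strand setting of the counting is not given in the sources used here.

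Promoter sequences of RefSeq on GRCm38.p6, from 250 bases before to 50 bases after the annotated start, were at hand for 9 of the 10 members. They were searched on both strands for the palindromic STAT motif TTCNNNGAA and for the FOXO motif GTAAACA. The STAT motif was found in the promoter of 1 member, Socs3, and in 8.3% of 32851 promoters of all genes. The FOXO motif was found in 3.65% of all promoters and in none of the members', which says only that these letters are not in these windows. The window of Socs3 is shown because Socs3 is the member known as a target of Stat3, and both are followed over dose further on. It lies at chr11:117969501-117969530, is printed along the minus strand from 5′ to 3′, and the capitals mark the motif, whose first base is 154 bases before the RefSeq start. That start, and the printed window, lie inside the GENCODE span given above, which begins further upstream.
Socs3: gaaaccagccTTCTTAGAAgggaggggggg

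Between 1839621 and 4420675 reads fell on genes in each library. No pair of libraries of 1 group was alike within sampling noise, since the chi-square statistic per gene was between 2.17 and 12.0 over 30 pairs. The share of uniquely mapped reads that fell outside genes separated groups at 24 h, and its values are given where they bear on a result. Levels are given as CPM, the count scaled to a common library size with TMM factors of edgeR. A 3′ library gives 1 fragment per transcript, so CPM was compared between genes without division by length. In bulk RNA, fewer cells that use a gene and less RNA per cell cannot be told apart.

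The labelled tissue was checked against marker lists, and many markers of mature neurons were near 0. Of 13 neuron markers, 7 were under 1 CPM in the mean of 30 libraries. Gad1, an enzyme of GABA synthesis, had no read, and Snap25, a synaptic protein, was at 0.0404 CPM, whereas the neuronal tubulin Tubb3 was at 49.1 CPM and the neurofilament Nefm at 40.5 CPM. Of 11 feeding peptides and their receptors, 5 had no read (Cartpt, Mc3r, Mc4r, Ghsr and Glp2r), and only the neuropeptide Y receptor Npy1r was above 1 CPM, at 1.70 CPM. The mesenchymal markers summed to 6287 to 8241 CPM per library, led by the intermediate filament Vim at 2198 CPM and the collagens Col1a1 and Col1a2 at 2053 and 1580 CPM. Of 6 microglia markers, Tmem119 was at 242 CPM, Cx3cr1 at 14.5 and Csf1r at 11.4 CPM, while Ptprc, P2ry12 and Aif1 were under 1 CPM, at 0.740, 0.105 and 0.0277 CPM. Of 6 astrocyte markers, the glutamate transporters Slc1a2 and Slc1a3 were at 18.8 and 3.49 CPM and S100b at 4.24 CPM, Aldh1l1 and Gfap were at 0.456 and 0.0276 CPM, and Aqp4 had no read. The oligodendrocyte genes Olig1, Olig2 and Sox10 had no read.

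The leptin receptor was the only member near the limit of detection. Lepr had 34 reads among 84273080 on genes, or 0.403 CPM with an exact Poisson 95% interval of 0.279 to 0.564, which covers counting error only. It had no read in 15 of the 30 libraries and at most 5 in any. The 15 libraries of 6 h held 17 reads and those of 24 h held 17. All 3 vehicle libraries of 24 h and all 3 libraries of 0.325 µM at 6 h were at 0. In 7 of the other groups some libraries were at 0 and some above it, and at 1.5 µM after 6 h all 3 libraries had reads, 1 to 4 each. Lepr did not pass the filter on low counts and was not tested, and a difference between groups was not detectable at this depth.

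The other 9 members had reads in every library, and their levels ordered as follows. Ptpn1 had the highest level, 339 ± 26.9 CPM (SD, n = 30), followed by Stat3 at 315 ± 101 CPM and Igf1r at 217 ± 18.97 CPM. Irs2 was at 81.8 ± 12.9, Foxo1 at 54.8 ± 10.8, Jak2 at 38.4 ± 8.03, Socs3 at 32.4 ± 12.5 and Irs1 at 23.4 ± 5.86 CPM. Insr was the lowest of the 9 at 9.10 ± 3.18 CPM, so its reads per library, 11 to 68, gave the least precise values. Every library of Ptpn1 (281 to 393 CPM) was above every library of Igf1r (174 to 247 CPM), and every library of Igf1r was above every library of Irs2 (63.1 to 107 CPM). The ranges of Stat3 and Ptpn1 overlapped, as did those of Irs2 and Foxo1, Foxo1 and Jak2, Jak2 and Socs3, Socs3 and Irs1, and Irs1 and Insr. Igf1r exceeded Insr in all 30 libraries. In the GRCm38 annotation, with the exons of all transcripts merged, the outermost 3′ exon of Insr has 94 bases and that of Igf1r 7649. This need not be the last exon of the main transcript of Insr, so the 94 bases do not show where its reads fall. Reads past the annotated end of a gene are not counted for it, and the part of this in the level of Insr was not tested.

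**Figure D1:**
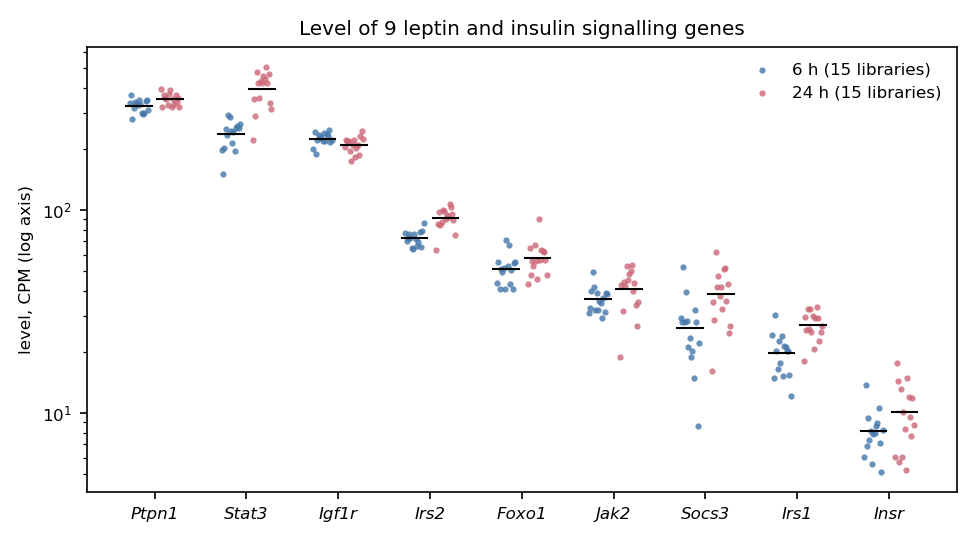
Level in CPM (log axis) of the 9 members that passed the filter, with 1 point per library, the 15 libraries of 6 h and the 15 of 24 h side by side, and a line at each mean. Lepr is not drawn because 15 of its libraries were at 0. Stat3 had means of 236 CPM at 6 h and 395 CPM at 24 h, the widest gap between the times in CPM.

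Of 9 ligands of these receptors and of related cytokine receptors, 6 were under 1 CPM in the mean of 30 libraries. Lep, Ins1, Ins2 and Osm had no read in 84273080, for which an exact Poisson 95% interval allows up to 0.0438 CPM each. Igf1, the ligand of Igf1r, was the highest at 12.1 CPM, and Il6 was at 5.89 CPM. Among the receptors and kinases that share the JAK-STAT route, the gp130 subunit Il6st was at 209 CPM, Jak1 at 205 CPM and the oncostatin M receptor Osmr at 65.4 CPM. All 3 were higher in the mean than Jak2.

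At 6 h no member differed from vehicle at any single dose. The test throughout was the quasi-likelihood F-test of edgeR, with Benjamini-Hochberg adjusted p-values over all genes tested and a threshold of 0.1, and 9 members were among the 12012 genes tested at 6 h. At 0.325 µM 0 of 9 members were called, beside 0.200% of all genes tested. The same count of 0 stood beside 0.0749% at 0.75 µM, 0.0999% at 1.5 µM and 0.0500% at 3 µM. So few genes passed in all that a count of 0 among 9 is close to the background. The numbers of genes with an unadjusted p under 0.05 were 1057, 936, 950 and 872 in the same order, and DESeq2 called 71, 48, 56 and 48 genes but no member.

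Stat3 was the member with the smallest p at 6 h. The 3 vehicle libraries had 196, 151 and 203 CPM. The libraries of 0.325 µM had 259, 254 and 266 CPM and those of 0.75 µM 242, 195 and 255 CPM. The libraries of 1.5 µM had 289, 245 and 213 CPM and those of 3 µM 251, 234 and 295 CPM. Thus 11 of the 12 CBD libraries were above all 3 vehicle libraries, and 1 library of 0.75 µM lay within the vehicle range. Over the mean of the 4 doses the log2 fold change was 0.44 (SE 0.12, adjusted p = 0.138), and 0 of 9 members were called, beside 0.749% of all genes. At single doses it was between 0.32 and 0.50. Stat3 passed the threshold with DESeq2 (adjusted p = 0.0659), without the filter on low counts (0.0468), with a covariate for the share of reads outside genes (0.0353) and without the vehicle library with 203 CPM (0.0529). Without the vehicle library with 151 CPM the log2 fold change was 0.32 (adjusted p = 0.490). The share of all genes called in these alternative fits is not given here, so a pass in them has no background beside it.

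Socs3, the inhibitor induced by Stat3, had values in the opposite direction at 6 h. The vehicle libraries had 29.3, 28.1 and 52.5 CPM, and the 9 libraries of the 3 lower doses had 8.64 to 32.0 CPM with a median of 21.1. The libraries of 3 µM had 28.02, 39.5 and 28.2 CPM. The groups overlapped, and the highest vehicle value came from a library that also had a lower share of reads outside genes, 17.9% beside 21.4% and 20.8% in the other two. The log2 fold change over the 4 doses was -0.68 (SE 0.24, adjusted p = 0.286). Without that vehicle library it was -0.30 (adjusted p = 0.710). It passed the threshold without the filter on low counts (adjusted p = 0.0647) and with that covariate (0.0412), again without the share of all genes called beside it.

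The receptors, adaptors and Foxo1 showed no separation from vehicle at 6 h. Insr had 6.08 to 13.8 CPM in vehicle and 5.10 to 10.6 CPM in the 12 CBD libraries. Irs1 had 14.9 to 30.4 and 12.2 to 23.9 CPM, and Irs2 had 70.1 to 76.9 and 64.1 to 86.1 CPM. Foxo1 had 40.9 to 55.2 CPM in vehicle and 40.8 to 71.3 CPM with CBD, so all 4 overlapped. The 7 members other than Stat3 and Socs3 had fold changes over the 4 doses at 6 h between -0.33 for Irs1 and 0.17 for Foxo1 on the log2 scale. The interval of 2 SE on either side of the estimate was -0.21 to 0.18 for Ptpn1, -0.26 to 0.23 for Irs2 and -0.09 to 0.32 for Igf1r. For Insr, the member with the fewest reads of those tested, it ran from -0.75 to 0.43. No member differed among the doses at 6 h, where no gene of 12012 was called (0%) for any difference among doses, for a trend over dose or for 3 µM against the mean of the lower doses. The unadjusted p was under 0.05 for 452, 515 and 624 genes in these 3 contrasts, and DESeq2 called 0 genes in each. In none of the 9 members did the 12 CBD libraries lie wholly outside the vehicle range at 6 h, beside 1.45% of all genes.

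**Figure D2:**
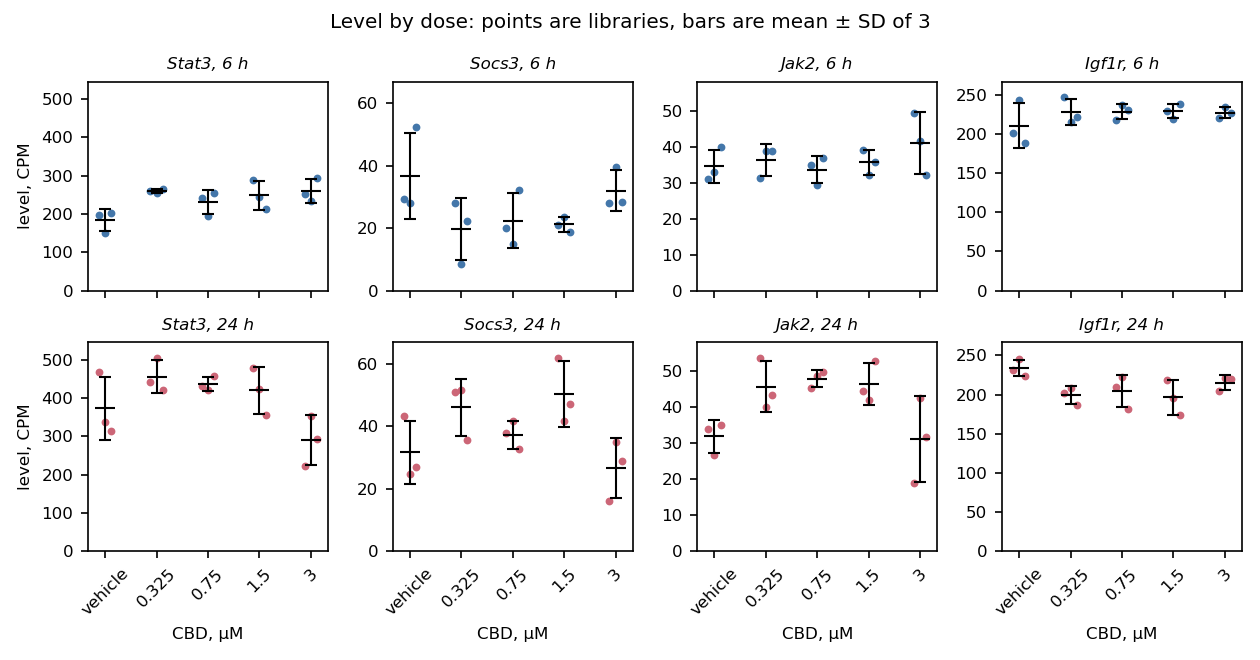
Level in CPM of Stat3, Socs3, Jak2 and Igf1r by CBD dose after 6 h (upper row) and 24 h (lower row), with 1 point per library and bars at the mean ± SD of 3 libraries, on axes that start at 0. At 24 h the libraries of 3 µM held Stat3 values of 222 to 354 CPM, below the 356 to 505 CPM of the 9 libraries of lower doses.

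After 24 h no member passed the test against vehicle at any dose either. Of 9 members among 12118 genes tested, 0 were called at 0.325 µM beside 0.0660% of all genes, 0 at 0.75 µM beside 0.0825%, 0 at 1.5 µM beside 0.0413% and 0 at 3 µM beside 0.00825%. Over the mean of the 4 doses 0 were called beside 0.107% of all genes. An unadjusted p under 0.05 was found for 815 genes in this last contrast, of which 2 were members, Igf1r and Jak2.

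Igf1r, the receptor of IGF-1, was the member whose CBD libraries stood wholly apart from vehicle at 24 h. The vehicle libraries had 232, 245 and 224 CPM. The libraries of 0.325 µM had 203, 208 and 186 CPM, those of 0.75 µM 210, 222 and 182 CPM, those of 1.5 µM 219, 196 and 174 CPM, and those of 3 µM 204, 222 and 220 CPM. All 12 CBD libraries were below all 3 vehicle libraries, a split in either direction that 0.635% of all genes showed. The share of reads on mitochondrial genes split the same libraries, with 8.43 to 9.82% in vehicle and 7.10 to 8.11% in the 12 CBD libraries. A fit without mitochondrial genes changed no count of members called by over 1.5 times. Igf1r was not called in the main fit, so such a count cannot bear on this split. The part of the mitochondrial share in the result was not tested. The difference was small, with a log2 fold change of -0.21 over the 4 doses (SE 0.09, adjusted p = 0.715), and did not pass the test. At 6 h the same contrast was 0.12 (SE 0.10), and the vehicle values of 188 to 243 CPM spanned most CBD libraries.

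Jak2, the kinase bound to the leptin receptor, had higher values at the 3 lower doses than in vehicle at 24 h. The vehicle libraries had 34.1, 26.7 and 35.2 CPM. The libraries of 0.325 µM had 53.8, 40.0 and 43.5 CPM, those of 0.75 µM 45.3, 48.6 and 49.8 CPM, and those of 1.5 µM 44.4, 42.0 and 53.0 CPM. All 9 were above all 3 vehicle libraries, whereas the libraries of 3 µM, with 18.9, 42.6 and 31.9 CPM, spread from below the vehicle range to above it. The log2 fold change was 0.51, 0.56 and 0.54 at the 3 lower doses, with SE of 0.20 each and adjusted p of 0.500, 0.444 and 0.574, and -0.04 at 3 µM (SE 0.21). The 9 libraries of lower doses lay wholly outside the vehicle range for 2 of 9 members, Jak2 above and Igf1r below, beside 2.53% of all genes.

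The contrast over dose with the most calls at 24 h set 3 µM against the lower doses, and 3 members were lower at 3 µM. Stat3, Socs3 and Jak2 passed the test, which called 10.5% of all genes tested and 4.16% as lower. This contrast was chosen with earlier results of these data in view. The median log2 fold change of the 9 members was -0.21, beside 0.01 over all genes tested. Of the 9, 6 were below 0, beside 49.4% of all genes tested. These 6 had their lowest value at 24 h in the same library of 3 µM, as described below.

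Stat3 had 222, 354 and 291 CPM at 3 µM. At 0.325 µM it had 442, 505 and 420 CPM, at 0.75 µM 430, 421 and 457 CPM, and at 1.5 µM 479, 424 and 356 CPM. The 3 libraries of 3 µM lay below all 9 libraries of lower doses, and Stat3 was the 1 member of 9 with this separation, beside 4.56% of all genes that showed it in either direction. The log2 fold change was -0.58 (SE 0.13, adjusted p = 0.0113). The vehicle libraries had 466, 338 and 313 CPM and overlapped both sets.

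Socs3 had 16.1, 35.1 and 28.8 CPM at 3 µM. At 0.325 µM it had 50.9, 51.5 and 35.6 CPM, at 0.75 µM 37.7, 41.6 and 32.6 CPM, and at 1.5 µM 62.0, 41.6 and 47.2 CPM. The highest library of 3 µM was within the range of the lower doses, and the other two were below it. The log2 fold change was -0.71 (SE 0.21, adjusted p = 0.0414). The vehicle libraries had 43.3, 24.7 and 26.8 CPM, which overlapped both sets.

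Jak2, with the values given above, had a log2 fold change of -0.58 (SE 0.18, adjusted p = 0.0514), and 1 library of 3 µM lay within the range of the lower doses. For all 3 genes the lowest value at 24 h came from the same library of 3 µM, numbered A16 in the labels. Without A16 none of the 3 passed the threshold, with log2 fold changes of -0.43 for Stat3 (adjusted p = 0.141), -0.46 for Socs3 (0.364) and -0.32 for Jak2 (0.462). Without A18, another library of 3 µM, the log2 fold changes of Socs3 and Jak2 were no smaller, at -0.78 and -0.60, but their adjusted p rose to 0.105 and 0.140, while Stat3 passed.

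The share of reads outside genes moved with the same groups. It was 20.8 to 21.7% at 3 µM and 18.7 to 20.4% at the lower doses, with no overlap, and 20.9 to 22.2% in vehicle. With this share as a covariate the log2 fold changes were -0.62 for Stat3, -1.06 for Socs3 and -0.80 for Jak2, none of which passed the threshold (adjusted p = 0.318, 0.279 and 0.348). The part of this share in the result was not tested otherwise. The mesenchymal markers summed to 6745 to 7330 CPM at 3 µM and to 6643 to 7833 CPM at the lower doses, and 1 of 8 tested, the PDGF receptor Pdgfrb, was lower at 3 µM, with a log2 fold change of -0.44 (adjusted p = 0.0427). The neuron markers summed to 137 to 184 CPM at 3 µM and to 114 to 144 CPM at the lower doses, and 1 of 5 tested, Nefm, was higher, with a log2 fold change of 0.93 (adjusted p = 0.0191). The microglia markers summed to 224 to 293 CPM and to 271 to 346 CPM, and 1 of 3 tested, Cx3cr1, was higher with a log2 fold change of 0.95 (adjusted p = 0.0657). The part of these cell markers in the result was not tested.

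**Figure D3:**
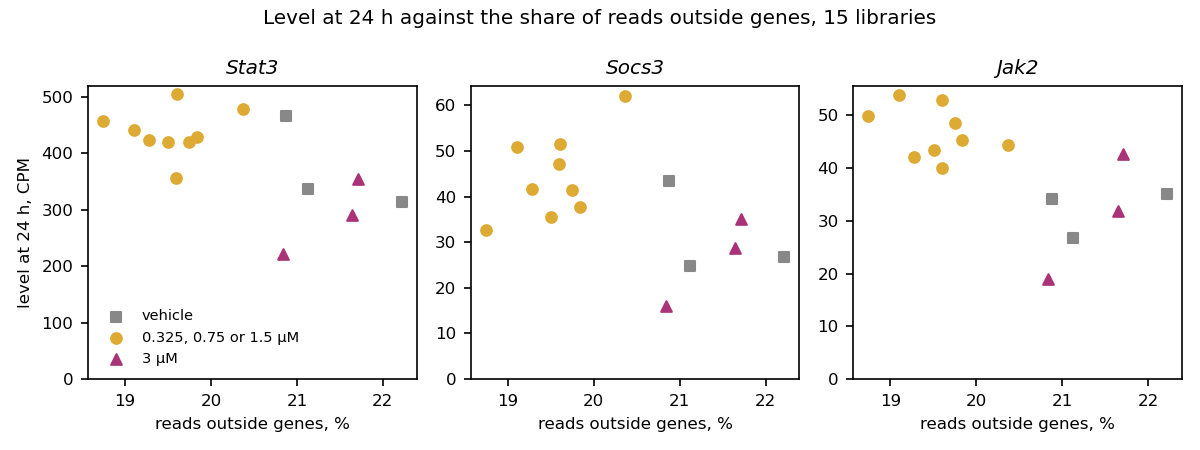
Level in CPM of Stat3, Socs3 and Jak2 at 24 h against the share of uniquely mapped reads outside genes in percent, with 1 point per library for vehicle, the 3 lower doses and 3 µM. The lower doses sit between 18.7 and 20.4%, and vehicle and 3 µM between 20.8 and 22.2%, so the share separates the same libraries as the dose contrast.

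At 24 h the adaptors, Insr and Foxo1 overlapped between vehicle and the 12 CBD libraries. The CBD ranges were wider, but they cover more libraries than the vehicle ranges, so the widths cannot be compared. Insr had 7.65 to 11.9 CPM in vehicle and 5.24 to 17.5 CPM with CBD. Irs1 had 22.7 to 26.8 and 18.1 to 33.4 CPM, and Irs2 had 75.4 to 95.0 and 63.1 to 107 CPM. Foxo1 had 47.9 to 61.9 CPM in vehicle and 43.0 to 90.3 CPM with CBD. The lowest values of Irs1, Irs2 and Foxo1 were those of A16, the library that was also lowest for Stat3, Socs3 and Jak2.

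The other 6 members did not pass the test of 3 µM against the lower doses. Their log2 fold changes were 0.46 for Insr (SE 0.30), 0.13 for Igf1r (SE 0.10), 0.05 for Ptpn1 (SE 0.09), -0.20 for Irs2 (SE 0.12), -0.21 for Irs1 (SE 0.17) and -0.22 for Foxo1 (SE 0.16). Ptpn1, the phosphatase of Jak2 and the insulin receptor, had 393, 321 and 369 CPM at 3 µM and 323 to 389 CPM at the lower doses. The interval of 2 SE placed its log2 fold change between -0.13 and 0.24.

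Stat3 was also the 1 member called in the remaining contrasts over dose at 24 h. For any difference among the 4 doses it had an adjusted p of 0.0832, and 1.93% of all genes were called. Its trend was -0.20 on the log2 scale per step of dose (SE 0.05, adjusted p = 0.0332), where 3.37% of all genes were called and 1.09% as falling. Group means went from 456 CPM at 0.325 µM through 436 and 420 CPM to 289 CPM at 3 µM, so the largest step was the last. The trend did not pass without A16 of 3 µM, where it was -0.15 (adjusted p = 0.171), or without A26 of 0.325 µM, where it was -0.17 (0.203). It was as steep but did not pass without A18 of 3 µM, at -0.20 (adjusted p = 0.103), without A25 of 0.325 µM, at -0.20 (0.152), and with the covariate, at -0.21 (0.419). Socs3 and Jak2 had trends of -0.19 and -0.17 that did not pass (adjusted p = 0.198 and 0.190).

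Stat3 had its largest fold change between the times rather than between doses. In vehicle alone Stat3 rose from 151 to 203 CPM at 6 h to 313 to 466 CPM at 24 h with no overlap. The log2 fold change was 1.02 (SE 0.16, adjusted p = 2.37e-05), and it passed in all 30 fits that left out 1 library, with values from 0.84 to 1.14. Stat3 was the 1 member of 9 called, beside 26.7% of all 12790 genes tested and 12.5% called as higher, so 1 of 9 is no larger a share than the background. Irs2, the adaptor protein, was at 76.9, 70.1 and 72.4 CPM at 6 h and at 95.0, 89.7 and 75.4 CPM at 24 h in vehicle, with a log2 fold change of 0.25 (SE 0.15, adjusted p = 0.240). Jak2 and Socs3 had log2 fold changes of -0.12 (SE 0.21) and -0.24 (SE 0.29).

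The change from vehicle to CBD was also compared between the times, and no member passed, beside 0.235% of all genes. Socs3 had the smallest p. Its fold change over the 4 doses was -0.68 at 6 h and 0.27 at 24 h, and the difference was 0.97 (SE 0.33, adjusted p = 0.412). Without the filter on low counts it was 0.94 and passed (adjusted p = 0.0585), in a fit whose share of all genes called is not given here. Leaving out 1 library at a time gave 0.58, without the vehicle library A3 of 6 h, to 1.28, without A28 of 24 h, and the difference passed in 0 of 30 such fits, with adjusted p from 0.267 to 0.739. Stat3 had 0.44 at 6 h and 0.07 at 24 h, a difference of -0.36 (SE 0.18, adjusted p = 0.761). Igf1r had a difference of -0.32 (SE 0.13, adjusted p = 0.643).

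**Figure D4:**
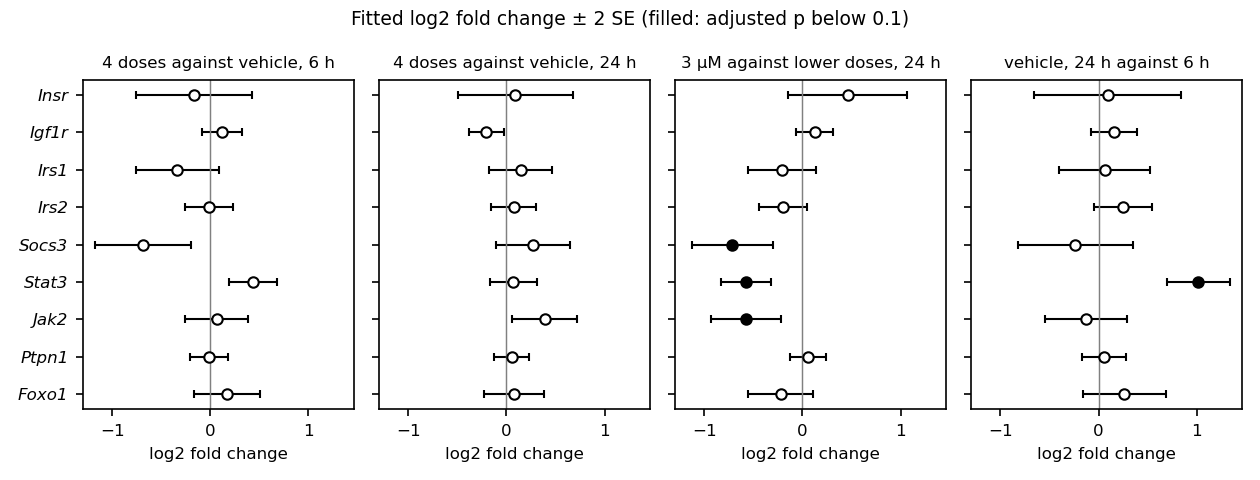
Fitted log2 fold change of the 9 members tested in 4 contrasts, with bars of 2 SE on either side and filled points where the adjusted p was below 0.1. The filled points are Stat3, Socs3 and Jak2 in 3 µM against the lower doses at 24 h, and Stat3 at 1.02 in vehicle of 24 h against 6 h.

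The wider pathway was followed in lists of related genes, which like the members were chosen with earlier results of these data known. In 3 µM against the lower doses at 24 h, 1 of 13 tested gp130 receptors, JAK kinases and STATs was called, beside the 10.5% of all genes given above. This was Osmr, the oncostatin M receptor subunit, at 53.3 ± 16.6 CPM beside 88.2 ± 17.2 CPM (SD, n = 3 and 9), with a log2 fold change of -0.71 (SE 0.18, adjusted p = 0.0237). In vehicle of 24 h Osmr was at 79.7 CPM, nearer the lower doses. Of 21 inhibitors and adaptors, the adaptor Grb10 was lower, with a log2 fold change of -0.40 (adjusted p = 0.0734), and the phosphatase Ptpn11 was higher by 0.36 (adjusted p = 0.0740). Vehicle of 24 h lay between 3 µM and the lower doses in the mean for both, at 107.4 CPM for Grb10 and 123.6 CPM for Ptpn11. The medians of the lists were -0.18 and -0.15, beside 0.01 over all genes.

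In the PI3K, AKT and mTOR arm 5 of 28 tested genes were called, 3 lower and 2 higher at 3 µM, beside 10.5% of all genes called and 4.16% called as lower. The lipid phosphatase gene Inppl1 was at 69.4 ± 20.8 CPM beside 114 ± 15.5 CPM at the lower doses, with a log2 fold change of -0.69 (SE 0.15, adjusted p = 0.0112). Its level in vehicle of 24 h was 82.7 ± 13.7 CPM. Akt1, the kinase upstream of Foxo1, had a log2 fold change of -0.45 (adjusted p = 0.0483) and Pik3cb, a catalytic subunit of PI3K, -0.59 (0.0485). At 3 µM, the lower doses and vehicle of 24 h, the means were 169, 234 and 190 CPM for Akt1. They were 17.1, 26.3 and 16.8 CPM for Pik3cb in the same order. The kinases Gsk3a and Gsk3b, which AKT inhibits, were higher by 0.49 (adjusted p = 0.0521) and 0.26 (0.0748). Their means in the same order were 105, 76.3 and 79.3 CPM for Gsk3a and 314, 265 and 286 CPM for Gsk3b. The median of the list was -0.04.

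Of the known FOXO target genes, 12 of 18 were tested and 5 were called in the same contrast, 4 as lower, beside the same 10.5% and 4.16% of all genes. The cell cycle inhibitor Cdkn1b was at 350 ± 98.5 CPM at 3 µM and 513 ± 65.4 CPM at the lower doses, with a log2 fold change of -0.53 (SE 0.14, adjusted p = 0.0230). Its level in vehicle of 24 h was 348 ± 52.4 CPM, near that of 3 µM. Txnip, which binds thioredoxin, had -0.86 (SE 0.22, adjusted p = 0.0239), the mitochondrial superoxide dismutase Sod2 -0.49 (0.0497) and the sestrin Sesn3 -0.43 (0.0748), while the repressor Bcl6 was higher by 0.60 (0.0299). At 3 µM, the lower doses and vehicle of 24 h, Txnip had means of 37.6, 70.2 and 71.1 CPM. The SD of Txnip in vehicle was 35.7 CPM. Sesn3 had 36.4, 49.9 and 50.03 CPM and Bcl6 35.6, 23.7 and 26.9 CPM in the same order. Vehicle was thus nearer the lower doses in Txnip, Sesn3 and Bcl6, unlike in Cdkn1b. Sod2 had 51.3, 73.1 and 61.7 CPM, with vehicle between the other groups. The hepatic targets G6pc and Igfbp1 had no read. Of the known STAT3 target genes, 12 were tested and 2 called, 1 in each direction, Junb lower with a log2 fold change of -0.64 (adjusted p = 0.0237) and the cyclin Ccnd1 higher with 0.47 (0.0750), with Birc5 and Cebpd the most abundant at 277 and 229 CPM. In the same order of groups, the means were 158, 249 and 171 CPM for Junb and 69.1, 50.8 and 56.6 CPM for Ccnd1.

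Against vehicle, 2 genes of the lists passed, 1 over the 4 doses at 6 h and 1 at 0.325 µM after 24 h. These contrasts called 0.749% and 0.0660% of all genes. All lists were tested in each contrast against vehicle, so the 2 calls are not read as a result about the lists. Junb, a component of the AP-1 transcription factor, was lower over the 4 doses at 6 h, at 132 ± 20.6 CPM (n = 12) beside 206 ± 47.5 CPM in vehicle (n = 3), with a log2 fold change of -0.67 (SE 0.13, adjusted p = 0.0161). Lcn2, a secreted protein that binds iron carriers, was higher at 0.325 µM after 24 h, with a log2 fold change of 0.79 (SE 0.16, adjusted p = 0.0872). Between vehicle of 24 h and 6 h, where 26.7% of all genes were called and 12.5% as higher, 4 of 13 receptors, kinases and STATs were higher and none lower, among them Il6st by 0.65 (adjusted p = 0.000591) and Stat5a by 0.87 (0.0144), which shares 72 bases with Stat3. In the PI3K, AKT and mTOR arm 7 were higher and 4 lower of 29 tested, and of the FOXO targets 5 were higher and 1 lower of 12, led by Cdkn1b at 1.27 (adjusted p = 1.08e-05).

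The genes whose pattern over the 10 group means was most like that of the 3 members called were found among 12790 genes by Pearson correlation of log2 CPM. For Stat3 they were Thbs3 (r = 0.990), Brf1 (0.988) and Fads1 (0.987). For Socs3 they were Zscan20 (0.944), Hspa1b (0.939) and Endov (0.934), and for Jak2 Arhgap8 (0.941), Thap11 (0.925) and Fam114a2 (0.923). The 10 points are means of the same libraries for every gene, and each gene named was picked as one of the 3 highest among 12790, so the values are a description only. Hspa1b has a near-identical copy, Hspa1a, and its count is uncertain. Arhgap8 and Zscan20 were low, at 3.68 and 7.93 CPM.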

How the data were processed

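Transcripts of mHypoA-2/12 cells were measured by 3′ mRNA-Seq in 30 libraries, grouped by the labels into vehicle and 4 doses of CBD at 6 h and 24 h, with 3 libraries per group. According to the methods, the authors checked reads with FastQC 0.11.9, trimmed them with Flexbar, mapped them with STAR 2.7.5c to GRCm39 and counted them per Ensembl gene with HTSeq 1.99.2, so the deposited values are raw read counts with no normalization. The strand setting is not given in the sources used here. The 5 summary lines of each table were left out of library sizes. Over all libraries 19.97% of uniquely mapped reads fell outside genes and 4.92% were ambiguous, so 24.9% named no gene.

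Counts were fitted in R 4.3.3 with edgeR 4.0.16 (filterByExpr, TMM, glmQLFit, glmQLFTest), 15 libraries per time or all 30 for contrasts between times, with a mean per group. Benjamini-Hochberg adjustment ran over every gene of a fit, with a threshold of 0.1. The trend over dose used contrast weights that rise evenly over the 4 doses and is given per step of dose. Intervals are 2 SE on either side. Symbols were matched for 51948 of 56941 gene IDs. The steps were tested on simulated data. The alternatives were DESeq2 1.42.0, RLE normalization, no filter on low counts, a fit of the compared groups alone, leaving out 1 library at a time, a covariate for the share of reads outside genes, and a fit without mitochondrial genes. Members that passed, list genes that passed (at most 8 per contrast, of which the text on vehicle at the 2 times gives examples) and the most abundant genes of each list were the ones to be named.

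The members, the lists and the contrast of 3 µM with the lower doses were chosen with earlier results of these data known.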

Additional observations from a re-analysis of the deposited data

Results flagged for a closer look

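Of the members and list genes, 1 had a change from vehicle to CBD that differed between the times by an interaction test. This contrast called 0.235% of all 12790 genes tested. Members and all lists were searched, so 1 call is not read as a result about them. Junb, a component of AP-1 and a known target of STAT3, had a log2 fold change over the 4 doses of -0.67 at 6 h (SE 0.13) and 0.37 at 24 h (SE 0.15). The difference between them was 1.04 (SE 0.22, adjusted p = 0.0644, edgeR quasi-likelihood F-test). At 24 h the values were 0.46, 0.47 and 0.65 at the 3 lower doses and -0.11 at 3 µM. Groups of 3 libraries are too small for the search for single deviating libraries, so none was run.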

How the results depend on the processing

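Of 405 recounts of members called in 18 contrasts under alternatives, 371 gave the same count within 1.5 times and 34 did not, and no direction reversed. At 6 h no member was called for 0.325 µM against vehicle, but 1 was (Socs3) without the filter on low counts and 2 (Stat3 and Socs3) with the covariate. Over the mean of the 4 doses at 6 h the count of 0 became 1 with DESeq2, 2 without the filter and 2 with the covariate. For any difference among doses at 24 h the count of 1 became 2 with DESeq2, 2 without the filter and 0 with the covariate. The trend at 24 h went from 1 to 2 without the filter and to 0 with the covariate, and 3 µM against the lower doses went from 3 to 0 with the covariate. The difference between times went from 0 to 1 without the filter. Leaving out each library in turn gave 0 to 1 for 3 µM against vehicle at 6 h and 24 h and for the mean of doses at 6 h, 0 to 3 for any difference and for the trend at 24 h, and 0 to 3 for 3 µM against the lower doses. The 1 came at 6 h without the vehicle library A3, and at 24 h without A17 of 3 µM. For any difference among doses Stat3 did not pass without any 1 of A16, A18, A19, A22, A23, A24, A25 and A26. These are counts of members alone, and the share of all genes called in each alternative fit is not given beside them. They are therefore not read as results about the members. Without the filter, the log2 fold change of Stat3 in 3 µM against the lower doses was -0.59, beside -0.58 in the main fit. Its adjusted p (edgeR quasi-likelihood F-test) was 5.67e-06 beside 0.0113. The causes were not tested. RLE normalization, the fit of only the groups compared and the mitochondrial genes left out changed no count by over 1.5 times. No paired analysis was possible because no 2 groups share replicate numbers in the labels. Low counts of Insr and Lepr limit what could be seen in them.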

Other observations

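Glucose transporters, which carry glucose into the cell and of which Slc2a4 is the insulin-responsive one, were followed in the same libraries. Slc2a1 was the highest at 39.1 CPM, Slc2a8 was at 16.05 CPM, Slc2a3 at 1.73 CPM and Slc2a4 at 1.32 CPM in the mean of 30 libraries. In vehicle of 24 h against 6 h, where 26.7% of all genes were called, Slc2a8 was higher with a log2 fold change of 1.36 (SE 0.27, adjusted p = 0.000492) and Slc2a1 was lower with -0.79 (SE 0.22, adjusted p = 0.00912). Slc2a4 had 117 reads in all 30 libraries and passed the filter on low counts at 24 h but not at 6 h. It was at 2.46 ± 1.10 CPM in vehicle of 24 h and at 0.177 ± 0.306 CPM in vehicle of 6 h (SD, n = 3), too few reads at 6 h for a fold change. No glucose transporter passed in any contrast over dose or against vehicle in these fits.

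Of the known STAT3 target genes, 1 was higher and 3 were lower among 13 tested in vehicle of 24 h against 6 h, a share near the 26.7% of all genes called. Lcn2 was higher with a log2 fold change of 0.81 (adjusted p = 0.00702). The cyclin Ccnd1 was lower with -1.45 (adjusted p = 5.78e-06) and the growth factor Vegfa with -1.12 (0.000499). Myc, the third of those called as lower, passed the filter on low counts at 6 h but not at 24 h, and its values were 5.58 ± 5.95 CPM in vehicle of 6 h and 1.64 ± 0.919 CPM in vehicle of 24 h (SD, n = 3), with an SD above the mean at 6 h. The filter had the same outcome for the cytokine Lif among the ligands, at 6.03 ± 5.36 and 1.52 ± 0.967 CPM, so no change is read from either.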
